A study of Mus musculus with 5 samples.

Results

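The 9 genes described here, Erg, Fli1, Kdr, Flt1, Tek, Tie1, Cdh5, Pecam1 and Emcn, are genes that mark the endothelial lineage, the cells that line blood and lymph vessels. They were taken as a list, 9 of the 21728 protein-coding genes of GENCODE M21 on the mouse autosomes and X chromosome (mm10), and each was read out as the length covered by called H3K27me3 peaks within 3 kb and within 25 kb of its transcription start site (TSS). The rule used no measured value to pick them, though earlier results of these data were known when they were chosen. Endothelial identity rests on ETS-family transcription factors such as Erg and Fli1, which bind the regulatory regions of most endothelial genes. Vascular endothelial growth factor (VEGF) acts through the receptor kinases Kdr and Flt1, and the angiopoietins act through Tek with its partner Tie1. Cdh5, Pecam1 and Emcn are proteins of endothelial junctions and of the endothelial surface. In cells of another lineage many such genes are silent, though expression of the 9 genes was not measured here. Many silent developmental genes carry H3K27me3, a histone methylation written by Polycomb repressive complex 2 and erased by Kdm6b (Jmjd3).

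The cells were late embryonic mouse dermal fibroblasts grown in AmnioMAX medium. The Kdm6b-cKO group, replicates 3 and 4, carried Dermo1Cre (Twist2-Cre) with Kdm6b fl/fl, and the WT group was replicates 7 and 9. Mice were of C57BL/6 background. One input library of the series has no peak list and was not used here. The Cre is driven by Twist2, a gene of the dermal mesenchyme, and the labels give a sort for GFP+ cells for every sample, WT included. Peaks hold no reads, so the lists cannot show the deletion of Kdm6b itself, and give no read number behind a peak. Whether replicates came from separate embryos is not in the labels. The p-values therefore rest only on the spread between these 2 libraries a group, which limma moderates with the spread over all genes tested. A peak in a culture of many cells does not tell a larger share of marked cells from more mark per cell.

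The Kdm6b-cKO lists were longer than the WT lists throughout the genome, with 44077 and 40565 peaks over 148 and 124 Mb in Kdm6b-cKO and 29841 and 22597 peaks over 91.4 and 61.5 Mb in WT. Over all genes tested, the median difference of Kdm6b-cKO minus WT was 11.7 points of percent covered within 3 kb and 2.41 kb within 25 kb, and values below are to be read against these medians. Promoters of 12 fibroblast genes fixed as a list (Col1a1, Pdgfra, Twist2 and others) were marked in 0 of 4 libraries. Of 10 keratinocyte promoters 6 and 6 were marked in Kdm6b-cKO and 5 and 5 in WT, while for 10 mural cell promoters it was 4 and 4 in Kdm6b-cKO and 4 and 4 in WT, and for 10 haematopoietic promoters 4 and 5 in Kdm6b-cKO and 3 and 3 in WT. Summed kb within 25 kb were 116 and 97.9 against 67.8 and 61.9 for keratinocyte genes, 67.9 and 64.6 against 59.9 and 41.5 for mural cell genes and 112 and 97.6 against 56.7 and 42.2 for haematopoietic genes, in each case Kdm6b-cKO against WT.

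The 9 genes fell into 4 with a marked promoter in every library and 5 without. A promoter was called marked when at least 500 bp of TSS ± 3 kb was covered. Erg, Fli1, Kdr and Flt1 were marked in all 4 libraries, a state held by 15.2% of all promoters. Tie1 was marked in Kdm6b-cKO replicate 3 alone, and so 0 of the 9 genes were marked in each Kdm6b-cKO library and in no WT library, as 4.28% of all promoters were. Tek, Cdh5, Pecam1 and Emcn had 0 bp covered within 3 kb in every library. The count was 5 and 4 of 9 in Kdm6b-cKO, where 26.4% and 24.9% of all promoters were marked, and 4 and 4 of 9 in WT, where 19.7% and 16.3% were marked. Both transcription factors and both VEGF receptors were in the marked set, while the receptors Tek and Tie1 were not. Whether the split follows role was not tested, and 9 genes are few for it.

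**Figure D1:**
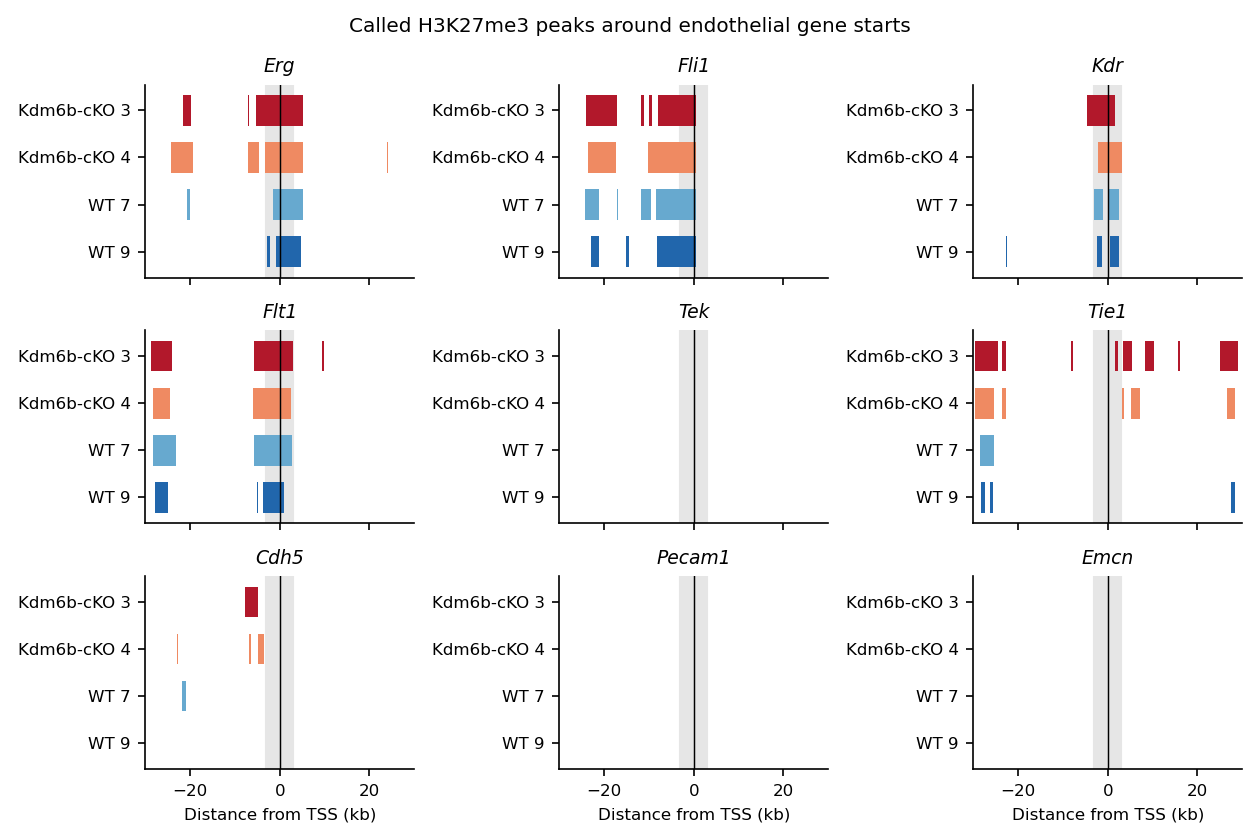
Called H3K27me3 peaks (bars) within 30 kb of the TSS of each gene (x axis, kb, with the gene running to the right of the black line), with Kdm6b-cKO replicates 3 and 4 above WT replicates 7 and 9 and the promoter window of 3 kb on either side in grey. Erg, Fli1, Kdr and Flt1 have peaks at the TSS region in all 4 libraries, and Tek, Pecam1 and Emcn have none in the window shown.

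The 2 sets also differed in promoter sequence, which took no part in their choice. CpG dinucleotides, in which many Polycomb targets are rich, numbered 25 at Erg, 45 at Fli1, 60 at Kdr and 100 at Flt1 in the 1 kb centred on the TSS. The other 5 genes had fewer, with 21 at Tie1, 19 at Tek, 18 at Cdh5, 16 at Pecam1 and 15 at Emcn. The sets did not overlap, though the gap between Erg and Tie1 was small. Across all genes the median was 41. It was 49 (quartiles 25 and 72) for promoters marked in all 4 libraries and 41 (quartiles 10 and 70) for those marked in no library. Over all genes the CpG counts of marked and unmarked promoters thus overlapped widely. Over the whole genome the share of promoters marked in all 4 libraries was 5.65% with fewer than 10 CpG, 13.2% from 10 and 16.9% from 20 upward, was greatest at 22.1% from 30 and 21.05% from 40, and was 17.1% from 60 and 16.6% from 80 upward.

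To show this difference in letters, the 230 bases that lie 250 to 21 bases before the RefSeq start are given for 3 marked genes and 2 unmarked genes, 5′ to 3′ on the strand of the gene, with each CpG in capitals. They come from the RefSeq promoter table (GRCm38.p6), which matched 6 of the 9 genes, and not Fli1, Cdh5 and Pecam1. The stretches of Flt1 (chr5:147726032-147726261, minus strand), Kdr (chr5:75978476-75978705, minus strand) and Erg (chr16:95586614-95586843, minus strand) belong to the marked set, and those of Tek (chr4:94739039-94739268, plus strand) and Emcn (chr3:137340828-137341057, plus strand) to the unmarked set.
Flt1: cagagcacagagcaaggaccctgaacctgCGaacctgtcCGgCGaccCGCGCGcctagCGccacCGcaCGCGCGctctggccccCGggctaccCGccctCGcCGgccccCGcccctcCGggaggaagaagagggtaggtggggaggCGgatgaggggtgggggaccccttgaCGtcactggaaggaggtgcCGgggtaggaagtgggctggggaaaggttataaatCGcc
Kdr: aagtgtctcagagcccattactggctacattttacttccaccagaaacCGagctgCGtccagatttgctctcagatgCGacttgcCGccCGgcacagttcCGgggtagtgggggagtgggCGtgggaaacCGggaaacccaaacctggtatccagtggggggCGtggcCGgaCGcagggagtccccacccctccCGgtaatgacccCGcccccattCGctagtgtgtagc
Erg: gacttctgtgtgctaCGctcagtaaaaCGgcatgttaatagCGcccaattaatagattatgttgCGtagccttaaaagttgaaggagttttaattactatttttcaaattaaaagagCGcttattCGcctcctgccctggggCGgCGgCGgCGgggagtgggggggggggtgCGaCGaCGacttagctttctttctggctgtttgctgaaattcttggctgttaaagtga
Tek: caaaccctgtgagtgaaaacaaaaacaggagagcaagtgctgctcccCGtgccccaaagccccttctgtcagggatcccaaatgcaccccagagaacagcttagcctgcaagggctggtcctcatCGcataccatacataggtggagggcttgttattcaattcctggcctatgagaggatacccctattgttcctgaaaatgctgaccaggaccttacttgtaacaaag
Emcn: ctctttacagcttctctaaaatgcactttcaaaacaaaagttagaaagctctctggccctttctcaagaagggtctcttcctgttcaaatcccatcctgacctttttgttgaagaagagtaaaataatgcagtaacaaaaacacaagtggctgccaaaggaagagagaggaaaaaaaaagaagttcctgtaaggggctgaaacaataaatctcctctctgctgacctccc
CG was counted as a dinucleotide, which reads the same on both strands. These stretches held 21 CpG in Flt1, 14 in Kdr and 13 in Erg, against 2 in Tek and 0 in Emcn. That of Tie1 held 6 and is not shown because it overlaps the GENCODE transcript. Of the 32851 promoters in the table, 12.9% had as many as Flt1 or more, 25.6% as many as Kdr or more and 27.8% as many as Erg or more. As many as Tie1 or more were held by 47.5%, and as many as Tek or more by 79.2%. The median was 5.

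**Figure D2:**
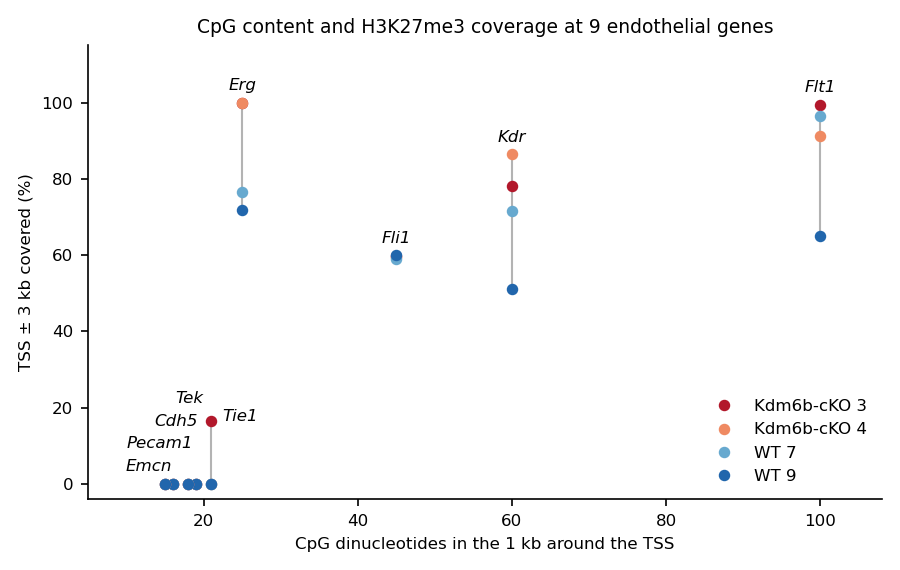
CpG dinucleotides in the 1 kb centred on the TSS (x axis) against the covered percent of TSS ± 3 kb (y axis) for the 9 genes, with 1 point for each library and a grey line over the range of the 4 libraries. The 4 genes with 25 or more CpG were marked in every library, and the 5 genes with 21 or fewer were at 0% in all libraries but for Tie1 at 16.4% in Kdm6b-cKO replicate 3.

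Which of these genes held more H3K27me3 once the demethylase was lost was asked with limma on the covered percent of TSS ± 3 kb and on the covered kb of TSS ± 25 kb, fitted over every gene with at least 500 bp covered in at least 1 library. At 3 kb, 5 of the 9 genes could be tested and Erg was called higher. At this width limma called 7.93% of 6251 promoters higher and 0.096% lower. At 25 kb, 6 of the 9 genes could be tested and limma called 0 of them, with 2 of the 6, Erg and Tie1, at an unadjusted p under 0.05, as were 33.9% of all genes tested at this width. There limma called 7.69% of 11829 genes higher and 0.0% lower. Both Kdm6b-cKO values stood above both WT values for Erg and Kdr at 3 kb, where this held for 49.0% of genes tested, and for Erg, Fli1, Kdr, Tie1 and Cdh5 at 25 kb, where it held for 65.3%. No member had both Kdm6b-cKO values below both WT values, a state of 2.42% of genes tested at 3 kb and 1.67% at 25 kb. Shares of this size over all genes leave little to read from the direction of single members.

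Erg (ENSMUSG00000040732.20, chr16:95359169-95586593, minus strand) encodes an ETS factor that maintains endothelial identity. Its promoter window was covered to 100% and 100% in Kdm6b-cKO replicates 3 and 4, against 76.5% and 71.8% in WT replicates 7 and 9. The groups did not overlap, and the Kdm6b-cKO values were at the ceiling of the measure. The difference was 25.9 ± 2.21 points (SE, n = 2 each), with a limma adjusted p of 0.042. Within 25 kb, 12.5 and 16.4 kb were covered in Kdm6b-cKO libraries against 7.45 and 6.05 kb in WT libraries, a difference of 7.74 ± 1.69 kb (SE, n = 2 each, limma adjusted p = 0.080).

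The additional length at Erg lay on the upstream side. The peak over the TSS began 5.40 and 3.34 kb upstream in Kdm6b-cKO, against 1.59 and 0.763 kb upstream in WT. It ended 5.15 and 5.25 kb inside the gene in Kdm6b-cKO and 5.12 and 4.74 kb inside it in WT. Upstream coverage out to 25 kb was therefore 7.40 and 10.9 kb in Kdm6b-cKO libraries against 2.33 and 1.31 kb in WT libraries, while coverage on the gene side was 5.15 and 5.51 kb for Kdm6b-cKO and 5.12 and 4.74 kb for WT. The fold over background listed for the whole peak was much the same in every library, at 3.79 and 3.58 in Kdm6b-cKO and 3.86 and 3.83 in WT. These peaks differed in length, so the listed fold does not compare their heights. Erg has 6 distinct annotated starts, and only the most upstream one was marked. The other 5, which lie 56.2 to 127 kb inside the gene, were at 0% in all 4 libraries.

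The Erg call was bound to the choice of window and peaks. Within 1 kb of the TSS Erg was already covered in full in Kdm6b-cKO (100% and 100%) and nearly so in WT (100% and 88.2%), and the difference was 5.90 points (limma adjusted p = 0.648). With equal covered length in each library the difference at 3 kb was the same 25.9 points and the limma adjusted p 0.057. With each library centred on its mean over genes it was 8.69 points, with a limma adjusted p of 0.494, and leaving out Kdm6b-cKO replicate 3, Kdm6b-cKO replicate 4 or WT replicate 9 gave limma adjusted p of 0.162, 0.150 and 0.086. Over all settings tried at this width the adjusted p ran from 0.042 to 0.648.

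Fli1 (ENSMUSG00000016087.13, chr9:32422204-32542861, minus strand), the other ETS factor, had the most constant promoter of the 4 marked genes. Its window was covered to 59.9% and 59.4% in Kdm6b-cKO and to 59.1% and 60.0% in WT. The groups overlapped, and the difference was 0.10 ± 0.841 points (SE, n = 2 each, limma adjusted p = 1.0). In every library a single long peak came from 8.07 to 10.2 kb upstream, crossed the TSS and stopped 0.547 to 0.600 kb inside the gene. This gene-side edge therefore lay at almost the same place in all libraries, whereas the upstream edge varied more. The second annotated start, 1.27 kb inside the gene, was covered to 38.8% and 38.3% in Kdm6b-cKO and 38.0% and 38.9% in WT.

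Farther upstream Fli1 did vary. Within 25 kb, 16.95 and 16.87 kb were covered in Kdm6b-cKO libraries against 14.8 and 11.1 kb in WT libraries, and the groups did not overlap. The difference of 3.95 ± 1.52 kb did not pass limma (SE, n = 2 each, adjusted p = 0.176). Nearly all of this length was upstream, 16.4 and 16.3 kb in Kdm6b-cKO libraries against 14.2 and 10.5 kb in WT libraries, with a second block about 20 kb upstream that was 7.05 and 6.12 kb long in Kdm6b-cKO and 3.21 and 1.80 kb long in WT. Fli1 had the longest coverage of the 9 genes in all 4 libraries at this width. Its rank among all genes was nonetheless lower in Kdm6b-cKO, where it exceeded 87.7% and 89.2% of genes, than in WT, where it exceeded 91.4% and 91.9%. The peak over the TSS had a fold over background of 4.52 and 4.21 in Kdm6b-cKO and 3.81 and 3.64 in WT.

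**Figure D3:**
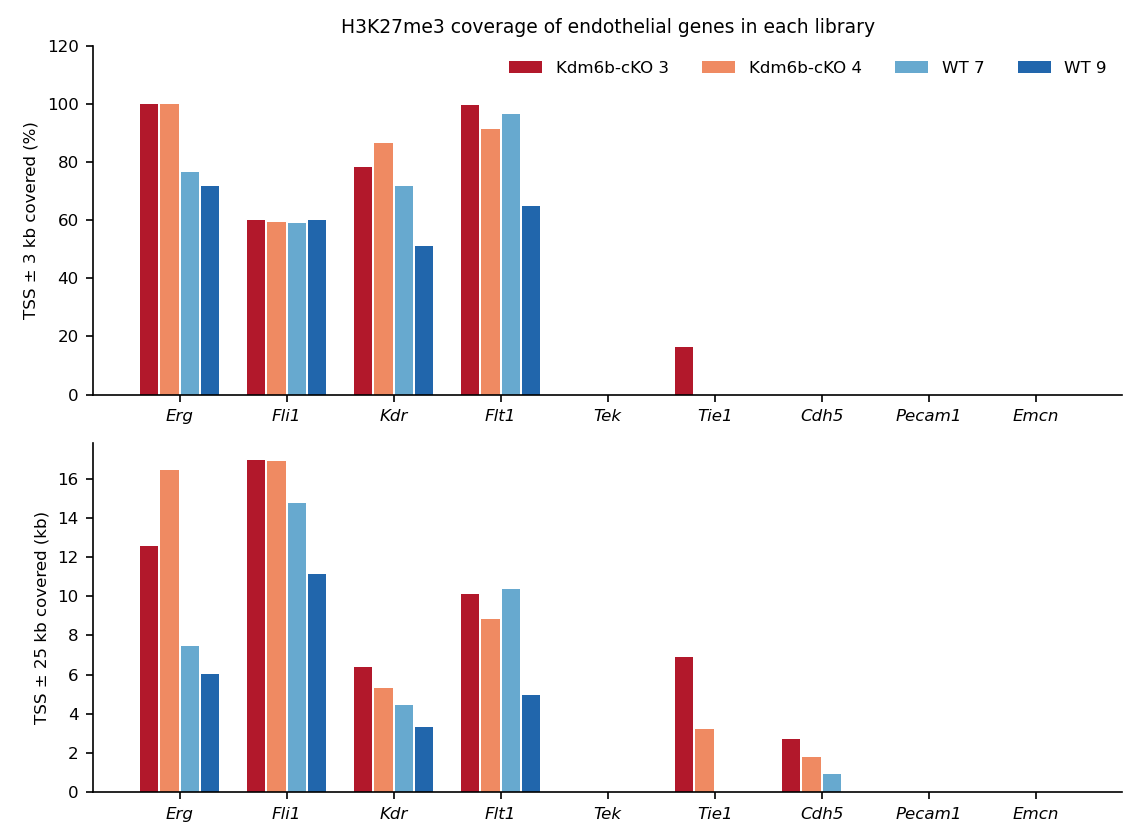
Covered percent of TSS ± 3 kb (upper bars) and covered kb of TSS ± 25 kb (lower bars) of the 9 genes in the 4 libraries, with Kdm6b-cKO (3, 4) in reds and WT (7, 9) in blues. Fli1 stays between 59.1% and 60.0% in the upper plot, Erg reaches 100% in Kdm6b-cKO alone, and Tie1 has 6.91 and 3.23 kb in Kdm6b-cKO and 0 kb in WT in the lower plot.

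Kdr (ENSMUSG00000062960.10, chr5:75932827-75978458, minus strand) encodes VEGFR2, the main signalling receptor for VEGF. Its promoter window was covered to 78.3% and 86.5% in Kdm6b-cKO and to 71.6% and 51.2% in WT. The groups did not overlap, but the difference of 20.96 ± 9.75 points did not pass limma (SE, n = 2 each, adjusted p = 0.351). Within 25 kb Kdr had 6.41 and 5.31 kb in Kdm6b-cKO libraries against 4.44 and 3.32 kb in WT libraries, a difference of 1.98 ± 0.873 kb (SE, n = 2 each, limma adjusted p = 0.216).

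At Kdr the libraries differed in where the peaks lay. In both Kdm6b-cKO libraries 1 peak ran across the TSS, from 4.71 kb upstream to 1.70 kb inside in replicate 3 and from 2.19 kb upstream to 3.12 kb inside in replicate 4. In both WT libraries the TSS lay in a gap between a pair of peaks, which spanned 1.3 kb in replicate 7 (1.10 kb upstream to 0.203 kb inside the gene) and 1.87 kb in replicate 9 (1.36 kb upstream to 0.510 kb inside). Coverage of TSS ± 1 kb was accordingly 100% and 100% in Kdm6b-cKO against 39.9% and 24.6% in WT, a difference of 67.8 ± 7.09 points that stayed short of the limma threshold (SE, n = 2 each, adjusted p = 0.055). At this width limma called 10.8% of 4591 promoters higher. How many other genes have such a gap in WT was not counted. Kdr was the only 1 of the 4 marked genes with its TSS outside a peak in any library. The −log10 q was 4.65 and 5.34 for the peaks over the TSS in Kdm6b-cKO, higher than in 87.3% and 91.7% of peaks of their lists, and 4.33 and 3.30 for those inside the gene in WT, higher than in 85.7% and 62.7%.

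With an equal covered length in each library, taken from the strongest peaks down, the Kdr peak of Kdm6b-cKO replicate 3 dropped out and the difference at 3 kb turned to -18.2 points (limma adjusted p = 0.911), and that at 25 kb to -1.22 kb (limma adjusted p = 0.743). With an equal number of peaks the difference at 3 kb stayed at 20.96 points (limma adjusted p = 0.407).

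Flt1 (ENSMUSG00000029648.13, chr5:147561604-147726011, minus strand) encodes VEGFR1, which binds VEGF and placental growth factor and as a soluble form holds VEGF away from Kdr. Its window was covered to 99.5% and 91.2% in Kdm6b-cKO and to 96.6% and 65.0% in WT. The groups overlapped, with WT replicate 9 low and the other 3 libraries close together, and the difference was 14.6 ± 14.4 points (SE, n = 2 each, limma adjusted p = 0.566). Within 25 kb Flt1 had 10.1 and 8.82 kb in Kdm6b-cKO libraries against 10.3 and 4.98 kb in WT libraries, again overlapping (1.81 ± 2.19 kb, SE, n = 2 each, limma adjusted p = 0.593). Without WT replicate 9 the difference at 3 kb was -1.23 points and that at 25 kb -0.880 kb.

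A second Flt1 block stood about 28 to 24 kb upstream in all 4 libraries, at the edge of the window. It was 4.61 and 3.84 kb long in Kdm6b-cKO and 5.02 and 2.90 kb long in WT. Its fold over background was 4.18 and 4.30 in Kdm6b-cKO and 3.14 and 3.30 in WT, whereas the peak over the TSS had 3.95 and 3.67 in Kdm6b-cKO and 3.86 and 3.75 in WT. Starts 79.2 to 111 kb inside Flt1 were at 0% in all libraries.

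Tie1 (ENSMUSG00000033191.14, chr4:118471191-118490061, minus strand), the receptor-like partner of Tek, was the gene whose surroundings were bare in WT and not in Kdm6b-cKO. Coverage within 25 kb was 6.91 and 3.23 kb in the Kdm6b-cKO libraries, against 0 and 0 kb in the WT libraries. The groups did not overlap, and the difference was 5.07 ± 1.54 kb (SE, n = 2 each), which did not pass (limma adjusted p = 0.124). The promoter window was covered to 16.4% and 0% in Kdm6b-cKO and to 0% and 0% in WT (8.21 ± 7.29 points, SE, n = 2 each, limma adjusted p = 0.533).

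The Tie1 coverage came in short pieces. Over the 18.9 kb gene body peaks covered 28.6% and 12.8% in Kdm6b-cKO and 0% and 0% in WT, and the longest piece inside the gene was 2.01 kb in Kdm6b-cKO replicate 3 and 1.95 kb in replicate 4. Inside the gene their −log10 q was 2.54 to 4.05 in replicate 3, higher than in 21.4% to 80.2% of that list, and 2.65 to 3.08 in replicate 4, higher than in 34.6% to 55.8%. In WT the nearest peaks stood 25.4 and 25.6 kb upstream. Within 50 kb, where limma called 8.84% of all genes tested higher, Tie1 differed by 24.8 kb (limma adjusted p = 0.039) and Erg by 15.5 kb (limma adjusted p = 0.043). With an equal number of peaks the Tie1 difference within 25 kb was 0.749 kb, with a limma adjusted p of 0.584.

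Tek (ENSMUSG00000006386.15, chr4:94739289-94874976, plus strand), the angiopoietin receptor also known as Tie2, had no peak anywhere near it. Its nearest peak stood 1200 and 850 kb from the TSS in Kdm6b-cKO and 1199 and 1224 kb from it in WT. Tek and Tie1, partners in signalling, thus lay in different surroundings, and Tek was the most remote from the mark of the 9 genes in every library.

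Of the junction and surface glycoproteins, Cdh5 (ENSMUSG00000031871.9, chr8:104101625-104144511, plus strand) encodes VE-cadherin, the adhesion molecule of endothelial junctions. Coverage within 25 kb was 2.74 and 1.82 kb in the Kdm6b-cKO libraries, against 0.96 and 0 kb in the WT libraries. The groups did not overlap, and the difference was 1.80 ± 0.815 kb (SE, n = 2 each, limma adjusted p = 0.225). All of this was upstream. The nearest peak stood 4.96 and 3.62 kb from the TSS in Kdm6b-cKO and 20.9 and 53.2 kb away in WT. The −log10 q of these nearest peaks was 2.65 in Kdm6b-cKO replicate 3 and 2.77 in replicate 4, higher than in 28.4% and 40.7% of their lists, and with equal peak numbers in the 4 libraries the difference was -0.291 kb, with a limma adjusted p of 0.827.

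Pecam1 (ENSMUSG00000020717.19, chr11:106654217-106750628, minus strand) encodes CD31, an adhesion protein of endothelium, platelets and leukocytes, and Emcn (ENSMUSG00000054690.17, chr3:137341067-137432185, plus strand) encodes endomucin, a sialomucin of venous and capillary endothelium. Both had 0 kb within 25 kb in all 4 libraries, as did Tek, a state shared by 42.7% of all genes. The nearest peak to Pecam1 stood 131 and 109 kb away in Kdm6b-cKO and 379 and 381 kb away in WT. That to Emcn stood 203 and 213 kb away in Kdm6b-cKO and 200 and 202 kb away in WT, so the distance was shorter in Kdm6b-cKO for Pecam1 and not for Emcn. The promoter of Milr1, an inhibitory receptor gene of mast cells that starts 0.598 kb from Pecam1 and was the only protein-coding neighbour within 25 kb of any of the 9 starts, was at 0% in all libraries too.

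**Figure D4:**
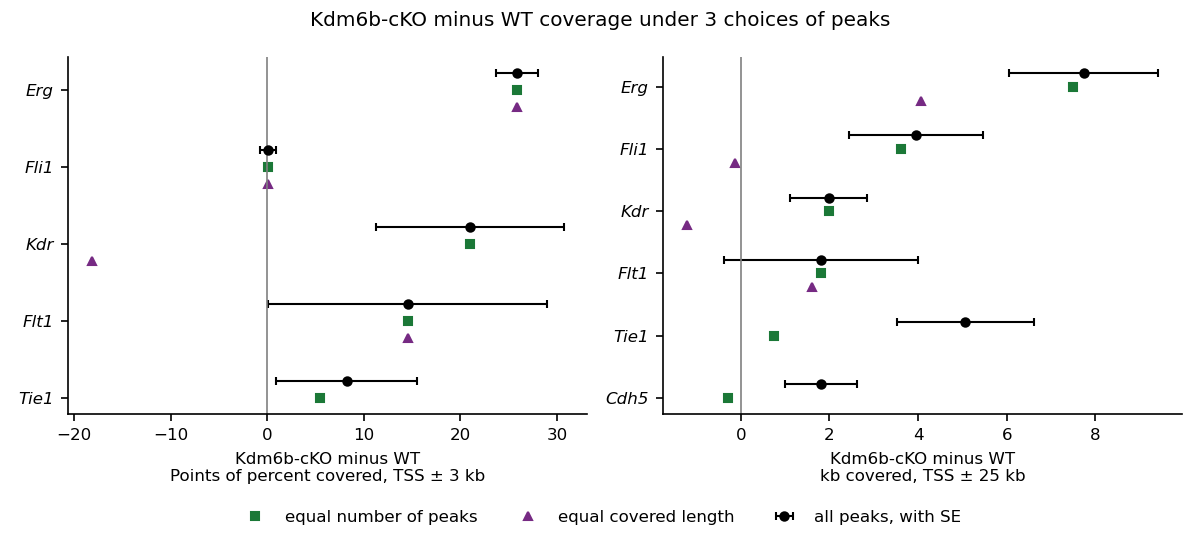
Kdm6b-cKO minus WT for the genes tested at TSS ± 3 kb (left, points of percent covered) and TSS ± 25 kb (right, kb covered), with all peaks (black, bars are limma SE, n = 2 each), an equal number of the strongest peaks (green) and an equal covered length (purple); Tie1 and Cdh5 have no value with equal covered length. Erg is at 25.9 points in all 3 at 3 kb, and Kdr turns to -18.2 points with equal covered length.

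The order of the members by coverage within 25 kb was nearly fixed. In Kdm6b-cKO replicate 3 and replicate 4 it ran Fli1, Erg, Flt1, with Tie1 before Kdr in replicate 3 and after it in replicate 4, and in WT it ran Fli1, Flt1, Erg, Kdr in replicate 7 and Fli1, Erg, Flt1, Kdr in replicate 9. Erg and Flt1 overlapped in WT (7.45 and 6.05 kb for Erg, 10.3 and 4.98 kb for Flt1) and not in Kdm6b-cKO (12.5 and 16.4 kb for Erg, 10.1 and 8.82 kb for Flt1). As a rank among all genes, Erg exceeded 82.5% and 88.9% of genes in Kdm6b-cKO and 81.8% and 84.7% in WT, and Kdr exceeded 71.6% and 71.2% in Kdm6b-cKO and 74.6% and 77.4% in WT. Within 3 kb Erg exceeded 93.5% and 94.3% of genes in Kdm6b-cKO and 92.6% and 93.8% in WT, so that in ranks its groups overlapped there.

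Genes outside the lists with the most similar 4 values within 25 kb were sought by Euclidean distance over the 4 libraries. Those nearest to Erg were Asgr2, a subunit of the hepatocyte asialoglycoprotein receptor (13.6 and 16.5 kb in Kdm6b-cKO, 8.08 and 5.67 kb in WT, distance 1.29 kb), and Gfra3, a GDNF-family receptor (1.82 kb). Those nearest to Fli1 were Psmd1, a proteasome subunit (0.823 kb), and Pdgfa, a platelet-derived growth factor (1.56 kb). For Kdr they were Dnajc28 and Tmem50b (0.462 kb each), and for Flt1 Mki67, a gene of proliferating cells (1.05 kb), and Fut10, a fucosyltransferase (1.08 kb).

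The rest of the endothelial programme was read from a list of 82 further genes. Their promoters were marked in 37 and 35 genes in Kdm6b-cKO and in 31 and 26 in WT, and in 24 genes in all 4 libraries. Within 3 kb limma called 4 of 41 tested genes higher, or 9.76%, and 0 lower, and their median difference was 4.95 points. Within 25 kb it called 9 of 65 higher, or 13.8%, and 0 lower, with a median of 2.57 kb. The shares called over all genes were 7.93% and 7.69%, and the medians 11.7 points and 2.41 kb.

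By role, the 22 transcription factors of the list resembled Erg and Fli1 in that 15 of them were marked in all 4 libraries. Their median difference within 3 kb was 0.0 points. Etv2, Sox7, Sox17, Sox18, Gata2, Tal1, Hhex, Prox1, Foxc1 and Foxf1 were at 100% in all 4 libraries, where no gain within 3 kb can show. Within 25 kb the median of the 18 factors tested was 1.94 kb, and limma called 0 of them. Lmo2, an adaptor of the Tal1 complex of blood and vessel progenitors, was the 1 factor called at 3 kb (100% and 100% in Kdm6b-cKO, 83.03% and 83.5% in WT, limma adjusted p = 0.021). The Lmo2 difference of 16.7 points was 0.35 points with peaks closer than 1 kb joined (limma adjusted p = 0.840) and 0.0 points around the start of the longest transcript. Of 16 ligands 2 were marked in all 4 libraries, of 17 receptors 3 and of 27 junction, surface and secreted genes 4. Over all promoters the share was 15.2%.

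Of the ligands, 2 of 6 tested within 3 kb and 3 of 10 tested within 25 kb were called. They included Pgf and Angpt4, partners of the receptors above, while other partners were not called. Vegfa and Angpt2 had too little coverage to be tested, at most 0.259 kb within 25 kb in any library. Angpt1 had 7.25 and 0 kb within 25 kb in Kdm6b-cKO libraries against 1.11 and 1.66 kb in WT libraries (limma adjusted p = 0.608). Pgf, the placental growth factor that binds Flt1, was covered within 3 kb to 56.1% and 55.8% in Kdm6b-cKO against 11.8% and 4.73% in WT (47.6 points, limma adjusted p = 0.031). Angpt4, an angiopoietin that binds Tek, had 0% within 3 kb throughout and 4.34 and 4.58 kb within 25 kb in Kdm6b-cKO libraries against 0 and 0 kb in WT libraries (limma adjusted p = 0.0499). With an equal number of peaks the Angpt4 difference was 1.10 kb (limma adjusted p = 0.414). Apln, the ligand apelin of sprouting endothelium, was covered within 3 kb to 99.9% and 100% in Kdm6b-cKO and to 15.1% and 0% in WT (92.4 points, limma adjusted p = 0.034). With an equal covered length in each library the Apln difference was smaller and was not called (limma adjusted p = 0.620). Apln lies on the X chromosome. Embryo sex was not taken into account, and its part in the Apln difference was not tested. Dll4, the Notch ligand of tip cells, was at 100% within 3 kb in all 4 libraries and had 24.3 and 24.4 kb within 25 kb in Kdm6b-cKO libraries against 15.7 and 13.5 kb in WT libraries (limma adjusted p = 0.038). Gdf2, which encodes BMP9, had 14.1 and 14.5 kb within 25 kb in Kdm6b-cKO libraries against 9.81 and 9.58 kb in WT libraries (limma adjusted p = 0.049).

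Among receptors Notch4 was called, with 27.9 and 28.8 kb within 25 kb in Kdm6b-cKO libraries against 7.25 and 2.51 kb in WT libraries (23.5 ± 1.94 kb, SE, n = 2 each, limma adjusted p = 0.032). Of the junction, surface and secreted genes, Nos3, the endothelial nitric oxide synthase, had 30.9 and 31.3 kb in Kdm6b-cKO libraries against 14.5 and 8.22 kb in WT libraries (limma adjusted p = 0.043). Stab1, a scavenger receptor, had 9.68 and 10.4 kb in Kdm6b-cKO libraries against 0.764 and 0.779 kb in WT libraries (limma adjusted p = 0.030). Icam2, an adhesion molecule of endothelium and leukocytes, had 8.10 and 8.49 kb against 1.25 and 0.496 kb (limma adjusted p = 0.035), Podxl, a sialomucin, 18.7 and 17.2 kb against 10.6 and 8.93 kb (limma adjusted p = 0.045), and Gpihbp1, which holds lipoprotein lipase on capillaries, 12.0 and 10.2 kb against 2.66 and 2.304 kb (limma adjusted p = 0.038), in each case Kdm6b-cKO against WT. Gpihbp1 was called within 3 kb as well (37.4% and 32.2% in Kdm6b-cKO, 0% and 0% in WT, limma adjusted p = 0.031).

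Windows of 25 kb reach into neighbouring genes, and the part of neighbours in these calls was not tested. With an equal covered length in each library 1 gene of the list, Pgf, was called within 3 kb and 2, Dll4 and Notch4, within 25 kb, while Icam2 turned to -0.871 kb and Podxl to -0.261 kb. Within 25 kb limma called 0 genes of the list and 0 of all genes without Kdm6b-cKO replicate 3, without Kdm6b-cKO replicate 4 and without WT replicate 9. Within 3 kb it did so without WT replicate 9.

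**Figure D5:**
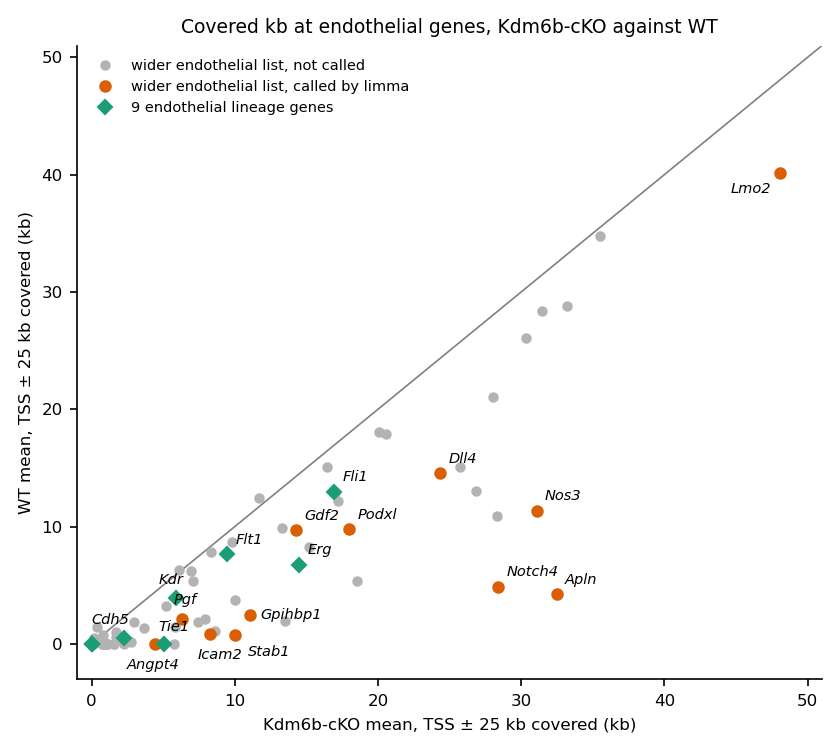
Mean covered kb within 25 kb of the TSS in Kdm6b-cKO (x axis) and WT (y axis) for the 9 endothelial lineage genes (green diamonds) and the 82 genes of the wider list, with the 12 genes called by limma at either width in orange and the line of equality in grey. Notch4, Apln and Nos3 lie farthest to the right of the line, and Tek, Pecam1 and Emcn share the point at 0 kb.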

How the data were processed

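Cultured dermal fibroblasts were profiled for H3K27me3 by ChIP-seq. The submitters' processing notes name mm10, MACS2 2.2.7.1, Bowtie2 2.3.5.1, deepTools 3.5.1 and SAMtools 1.9. The study's methods state that libraries were subsampled to a like number of reads and that broad peaks were called at a q cutoff in each library. Use of the input is not given in the sources used here. For each peak, each deposited list holds the authors' score, fold ratio over background, −log10 p and −log10 q, and no read counts, so no count model was run, and replicates were not pooled.

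Groups came from the sample titles. Peaks on 19 autosomes and X were merged, and the covered bp of TSS ± 3 kb and ± 25 kb was taken for 21728 genes of GENCODE M21, with the 5′ end of the gene as the TSS. All peaks lay inside the chromosomes of GRCm38.p6. Genes with at least 500 bp covered in at least 1 library were tested with limma 3.58.1 (lmFit, eBayes, R 4.3.3), with Benjamini-Hochberg adjustment over all of them and a threshold of 0.05. The study's own test on reads could not be run. Steps were tested on simulated data. Python 3.11.15, numpy 2.4.6, pandas 2.3.3, pysam 0.24.0 and matplotlib 3.10.9 were used. CpG was counted in the reference within 500 bp of the TSS. Named were all 9 genes, genes of the wider list called at either width, the 2 genes most like each member covered in all libraries, and protein-coding neighbours within 25 kb. A gene is not reported here. Alternatives were equal numbers or lengths of peaks, a −log10 q of at least 3, peaks within 1 kb joined, other windows and starts, no filter, centring, a trended prior and each library left out. The members and lists were chosen with earlier results of these data known.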

Additional observations from a re-analysis of the deposited data

How the results depend on the processing

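Of the settings listed in the processing section, those for the wider list were added after the data were seen. The 1 gene called within 3 kb (Erg) became 0 with equal covered length, −log10 q of at least 3 or the longest transcript's start. The count was also 0 within 1 kb, within 5 kb, without the filter and after centring. With 1 library left out the Erg difference was 23.5 points (without WT replicate 9) to 28.2 points (without WT replicate 7). With Kdm6b-cKO replicate 4 left out, Tie1 differed by 16.4 points, from 1 Kdm6b-cKO library at 16.4% against 0% and 0% in WT. The replicate left out was at 0%. The 0 genes called within 25 kb became 1 within 10 kb (Erg, with 4.43% of all genes tested called higher) and 2 within 50 kb (Erg and Tie1, with 8.84%), and stayed 0 with each library left out. Over all genes, leaving out 1 library gave 0 to 1355 higher calls within 3 kb and 0 to 1539 within 25 kb. Genes marked in all 4 libraries numbered 3 with equal covered length (Kdr was lost) and 3 with the start of the longest transcript (Erg was lost), and 4 otherwise. Centring turned Fli1 to -17.1, Flt1 to -2.62, Tie1 to -8.97 and Lmo2 to -0.448 points, and Fli1 to -0.102, Kdr to -2.07, Flt1 to -2.25 and Cdh5 to -2.25 kb. Equal covered length turned Kdr to -18.2 points, and Fli1 to -0.126, Kdr to -1.22, Icam2 to -0.871 and Podxl to -0.261 kb. Cdh5 was -0.291 kb with equal peak numbers and with −log10 q of at least 3. Leaving out 1 library gave -0.342 (without WT replicate 7) to 0.542 points for Fli1 (-0.142 without Kdm6b-cKO replicate 3), and -1.23 (without WT replicate 9) to 30.3 points and -0.880 (without WT replicate 9) to 4.49 kb for Flt1. The wider list's 4 higher calls within 3 kb were 1 with equal covered length, 2 with −log10 q of at least 3, 2 within 5 kb, 1 without the filter and 0 to 7 with 1 library left out. Its 9 within 25 kb were 2 with equal peak numbers, 2 with equal covered length, 1 with −log10 q of at least 3, 1 within 10 kb, 5 over the gene body, 3 without the filter, 16 with the trended prior and 0 to 10 with 1 library left out. The causes were not tested. No paired analysis was possible because the groups share no replicate numbers.

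A group of 2 libraries limits what limma can call, and a covered percent is bounded at 0 and 100. Where both libraries of a group sit at a bound, as Erg and Lmo2 in Kdm6b-cKO and Gpihbp1 in WT within 3 kb, their spread is 0. The SE of such a gene rests on the other group and on the spread limma takes from all genes tested. Broad peaks near the calling threshold enter or leave a list whole, so that a difference in a window can rest on 1 peak. The lists give no read number behind a peak. The difference in total covered length between the genotypes moves with each result, and a change in signal of the whole library cannot be told apart from the genotype here.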
